A study of Mus musculus with 3 samples.

Results

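The Hox cluster genes are the homeobox genes of the HoxA, HoxB, HoxC and HoxD clusters, taken as protein-coding genes whose mouse symbol is Hoxa, Hoxb, Hoxc or Hoxd followed by a paralog number. Of the 39 such genes, 38 were matched by their gene identifier to the expression tables, out of 20147 protein-coding genes and 36809 gene identifiers in all. The study measured polyadenylated RNA in the mouse brain, the liver and the whole testis, as the background to work on the source of transcriptome complexity in the testis. Every tissue came from male C57BL/6 mice at 11 weeks of age, without treatment or genetic change named in the labels, and each was represented by 1 strand-specific library. The sources used here do not give the number of animals behind a library. Levels are in FPKM, fragments per kilobase of transcript scaled to the number of mapped fragments, and each carries the lower and upper bound that the authors' software gave it, called the interval here. An interval describes the uncertainty of an estimate within 1 library. With 1 library per tissue, no difference between tissues has a replicate check.

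Hox genes encode transcription factors that bind DNA through a homeodomain and give cells their position along the head-to-tail axis of the embryo. Within a cluster the genes lie in one order, from the anterior (low-numbered) to the posterior (high-numbered) paralog groups, and in the embryo they are switched on in that order along the body. Their proteins bind DNA together with TALE homeodomain cofactors of the Pbx, Meis and Pknox families, Polycomb and trithorax complexes keep the clusters off or on, and retinoic acid activates the anterior genes. In the brain, Hox genes are known from the hindbrain and spinal cord, and the forebrain and midbrain lack them. Hoxa4 is known from earlier work as a gene active in male germ cells.

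The homeobox is the part that all members share, and it is shown for Hoxa4 and Hoxd8, the genes with the highest testis levels, because they carry most of the Hox signal in the data. The 180 bases were read from the GENCODE M21 transcripts on GRCm38, in the sense of the gene and 5′ to 3′, and the capitals mark the codons of the conserved run in the helix that contacts DNA. For Hoxa4 they lie at chr6:52190483-52190662 on the minus strand and for Hoxd8 at chr2:74706525-74706704 on the plus strand, in exon 2 of 2 of each transcript.
Hoxa4: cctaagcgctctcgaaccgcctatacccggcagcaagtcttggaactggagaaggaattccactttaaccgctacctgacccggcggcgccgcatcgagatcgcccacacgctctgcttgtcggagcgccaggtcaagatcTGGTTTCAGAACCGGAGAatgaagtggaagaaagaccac
Hoxd8: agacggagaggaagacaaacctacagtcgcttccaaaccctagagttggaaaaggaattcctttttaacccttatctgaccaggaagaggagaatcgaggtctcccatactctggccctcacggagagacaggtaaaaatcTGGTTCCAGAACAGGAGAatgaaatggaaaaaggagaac
A homeobox was found in 39 of 39 genes. Members of the same paralog group in different clusters had a median of 80.6% identical bases over the homeobox (range 67.2 to 93.9%, 42 pairs). Neighbours within 1 cluster had 61.7% (48.3 to 88.9%, 172 pairs) and pairs that shared neither group nor cluster had 60.6% (46.1 to 86.1%, 527 pairs). The closest homeoboxes to that of Hoxa4 were those of Hoxb4 and Hoxd4, both at 82.8%, and the closest to that of Hoxd8 was that of Hoxb8, at 80.6%. Stretches of the read length were mostly particular to 1 gene. None of the 1519 windows of 76 bases in the Hoxa4 transcript and none of the 2739 in the Hoxd8 transcript occurred on the same strand in a transcript of another gene. For Hoxa9 the share was 0.180%, for Hoxd9 it was 0 of 2061 windows, and for Hoxd3 it was 59.0%, with Hoxd4 among the genes that shared them.

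In the testis, a small number of Hox genes was expressed, and in the brain and the liver every Hox gene was low. At a level of at least 1 FPKM, 5 of 38 Hox genes (13.2%) were found in testis, against 57.9% of all protein-coding genes in that library. In brain 0 of 38 reached this level, against 58.5% of protein-coding genes, and in liver 0 of 38, against 43.9%. The 5 were Hoxa3, Hoxa4, Hoxa9, Hoxd8 and Hoxd9. The highest of the 3 libraries was testis for 27 genes, liver for 4 (Hoxa2, Hoxa5, Hoxb4 and Hoxb5) and brain for 2. The other 5 (Hoxa11, Hoxb13, Hoxc11, Hoxc13 and Hoxd12), all of the posterior groups, were listed at 0 in all 3 libraries. Of the 20147 protein-coding genes, testis was the highest library for 8242, liver for 2788 and brain for 7563, and 1554 were at 0 in all. Several of the 27 rest on very little: Hoxa10, Hoxb1 and Hoxb6 had testis intervals that correspond to 1 fragment each. The testis values of Hoxa6 and Hoxa7 are marked as uncertain.

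Low values were common in all 3 libraries. In brain 27 Hox genes were listed at exactly 0, against 14.4% of protein-coding genes, in liver 23, against 23.7%, and in testis 6, against 10.7%. A value whose lower bound lay above 0 was given for 1 Hox gene in brain (75.8% of protein-coding genes), for 7 in liver (65.3%) and for 19 in testis (79.1%). The median Hox level was 0 FPKM in both brain and liver and 0.0916 in testis, where the medians over all protein-coding genes were 2.13, 0.506 and 2.001 FPKM. Summed over the 38 genes, Hox FPKM came to 0.399 for brain, 1.02 for liver and 75.1 for testis. Hox genes are 0.189% of the protein-coding genes and made up 0.000116% of their total FPKM for brain, 0.000167% for liver and 0.0132% for testis. Hoxa4 and Hoxd8 held 89.1% of the testis sum, which was 8.15 FPKM without them. In whole-tissue libraries such as these, fewer cells of a type and less RNA per cell cannot be told apart.

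**Figure D1:**
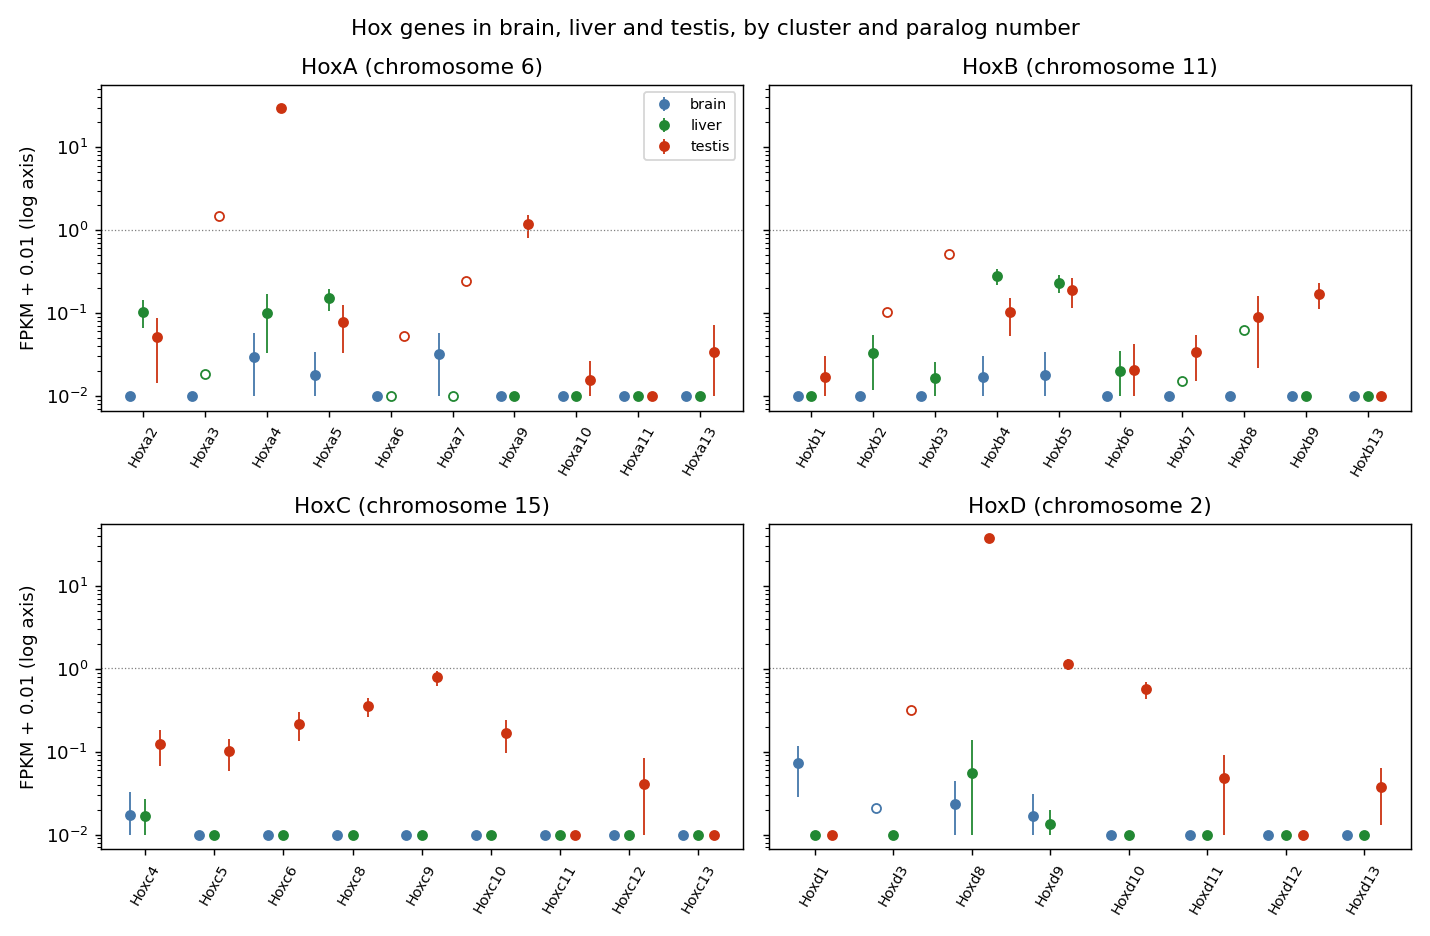
FPKM of Hox genes of the 4 clusters in the brain, liver and testis libraries, 1 library each, in cluster order from anterior to posterior, on a log axis after adding 0.01; vertical lines are the authors' intervals, open circles are estimates marked as uncertain, drawn without an interval, and the dotted line is 1 FPKM. Hoxa4 (29.5 FPKM) and Hoxd8 (37.4 FPKM) in testis stand above all other Hox values, and no brain or liver value reaches the line.

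Hoxd8, a central-group gene (chr2:74542672-74545990 on mm9, plus strand), was the highest Hox gene in FPKM. It measured 0.0135 FPKM in brain (interval 0 to 0.0343), 0.0460 in liver (0 to 0.128) and 37.4 in testis (34.5 to 40.3). The testis interval lies far above both others, which overlap each other, and the difference on the log2(FPKM + 0.1) scale was 8.37 to brain and 8.01 to liver. The width of the testis interval corresponds to an implied 679.0 fragments. Each was worth 0.0551 FPKM, against 0.0179 for Hoxa4 and a median of 0.00778 over the Hox genes in testis. The rank of Hoxd8 above Hoxa4 thus holds in FPKM and not in implied fragments. In the testis library Hoxd8 lay above 87.3% of protein-coding genes, in brain above 17.1% and in liver above 36.3%.

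Hoxa4, an anterior-group gene (chr6:52139670-52141752, minus strand), was the next highest. Its levels were 0.0194 FPKM in brain (interval 0 to 0.0475), 0.0906 in liver (0.0228 to 0.158) and 29.5 in testis (28.1 to 31.0), the last resting on an implied 1655 fragments. Testis again stands apart, by 7.96 to brain and 7.28 to liver on the same scale, and the brain and liver intervals overlap. Within the testis library the interval of Hoxd8 lies above that of Hoxa4, at a ratio of 1.27. Hoxa4 lay above 85.1% of protein-coding genes in testis.

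The paralogs of both genes in the other clusters were low in testis. Hoxb4 measured 0.0926 FPKM there and Hoxc4 0.116, so that Hoxa4 was 319-fold and 256-fold higher. Hoxb8 measured 0.0802 FPKM and Hoxc8 0.342, and Hoxd8 was 466-fold and 109-fold higher. The neighbours in the same cluster were low too. Hoxa5, 10 kb from Hoxa4, measured 0.0688 FPKM in testis, 430-fold less, and Hoxd9, 4.4 kb from Hoxd8, measured 1.14, 32.7-fold less.

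A gene was called different between tissues where it differed by at least 4-fold on the log2(FPKM + 0.1) scale and the intervals did not overlap. By this rule 7 of 38 Hox genes (18.4%) were higher in testis than in brain, against 19% of protein-coding genes, and 7 were higher in testis than in liver, against 30.1%. None was lower in testis than in brain (17% of protein-coding genes) or than in liver (8.87%). None differed between brain and liver in either direction, where 24.6% of protein-coding genes were higher in brain and 6.38% lower. With these settings the share of Hox genes higher in testis than in brain is close to that of all genes, and the share higher than in liver is below it. The first of these depends on the settings: with 0.01 in place of 0.1 added, 42.1% of Hox genes were higher in testis than in brain against 21.7% of all, and with 1 added 5.26% against 14.2%. The same 7 genes were called in both comparisons, which share the testis library: Hoxa4, Hoxd8, Hoxa9, Hoxd9, Hoxc9, Hoxd10 and Hoxc8. All 7 belong to paralog groups 4 and 8 to 10.

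Group 9 was the group with several members above the rest. Hoxa9, a posterior-group gene, was listed at 0 in brain and in liver and measured 1.16 FPKM in testis (interval 0.791 to 1.53). Hoxd9 measured 0.00693 FPKM in brain and 0.00324 in liver, against 1.14 in testis (0.969 to 1.32), a difference of 3.54 to brain and 3.59 to liver. Hoxc9 was listed at 0 in brain and liver and measured 0.776 FPKM in testis (0.614 to 0.938). These 3 testis levels lie close together: the Hoxa9 interval overlaps both others, and that of Hoxc9 lies below that of Hoxd9. The remaining member, Hoxb9, was lower, at 0, 0 and 0.160 FPKM (0.1004 to 0.219 in testis). Group 9 summed to 3.24 FPKM in testis with a median of 0.960, and group 10 summed to 0.724.

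Hoxd10, next to Hoxd9, was listed at 0 in brain and liver and measured 0.560 FPKM in testis (interval 0.428 to 0.692), and Hoxc8 was listed at 0 in both and measured 0.342 (0.252 to 0.432). Each overlaps its neighbour in the order of levels, Hoxc9 above Hoxd10 and Hoxd10 above Hoxc8, by a narrow margin. The 3 values rest on an implied 92.0, 72.0 and 58.0 fragments. All 9 genes of groups 11 to 13, which pattern the tail end, the limbs and the genital tract, were at 0.0384 FPKM or less in testis (Hoxd11 highest, Hoxd13 at 0.0280, Hoxa13 at 0.0238), and all 9 were listed at 0 in brain and liver.

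By cluster, testis Hox FPKM summed to 32.7 in HoxA, 1.15 in HoxB, 1.72 in HoxC and 39.5 in HoxD. HoxA held 3 of the genes at 1 FPKM or more and HoxD held 2. In HoxC the testis level was 0.116 FPKM for Hoxc4, 0.0910 for Hoxc5, 0.208 for Hoxc6, 0.342 for Hoxc8, 0.776 for Hoxc9 and 0.159 for Hoxc10, with its highest point at Hoxc9 and values of 0.0310 or less beyond Hoxc10. HoxD had a like profile on its posterior side, from 0.0384 FPKM at Hoxd11 through 0.560 at Hoxd10 and 1.14 at Hoxd9 to 37.4 at Hoxd8. HoxA did not follow position in this way, since Hoxa4 lay between Hoxa5 at 0.0688 FPKM and Hoxa3 at an uncertain 1.46, and in HoxB no gene exceeded 0.508 FPKM.

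Some testis estimates are not well determined. Of the 38 loci, 16 overlap another annotated feature, and 7 Hox genes (18.4%) were not marked as OK by the authors' software in testis, against 3.98% of protein-coding genes. In brain 2 were not marked as OK (3.13%) and in liver 5 (4.3%). Hoxa3 was listed at 0 in brain and at 0.00810 FPKM in liver, and its testis value of 1.46 FPKM has an interval of 0 to 38.0, so that its place among the 5 genes at 1 FPKM or more is uncertain. Hoxb3 (0.508 FPKM, 0 to 2.11) and Hoxd3 (0.307, 0 to 2.44) are in the same position. The Hoxa4 locus lies inside the listed spans of Hoxa3 and of the antisense gene Hoxaas3 (1.95 FPKM in testis, 0 to 4.58). Hoxd8 lies inside the span of Hoxd3os1, a noncoding gene on the opposite strand. Hoxd3os1 was listed at 0.00957 FPKM in brain and 0.0218 in liver, against 33.97 in testis, the last a failed estimate close to the Hoxd8 value. The libraries keep strand, but the counting is not stated to use it, so RNA of Hoxd8 and of Hoxd3os1 cannot be told apart with certainty. In the GENCODE M21 transcripts, no window of 76 bases in Hoxd8 recurs on the opposite strand in another gene, and for Hoxa4 11.8% do, in Gm29430.

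**Figure D2:**
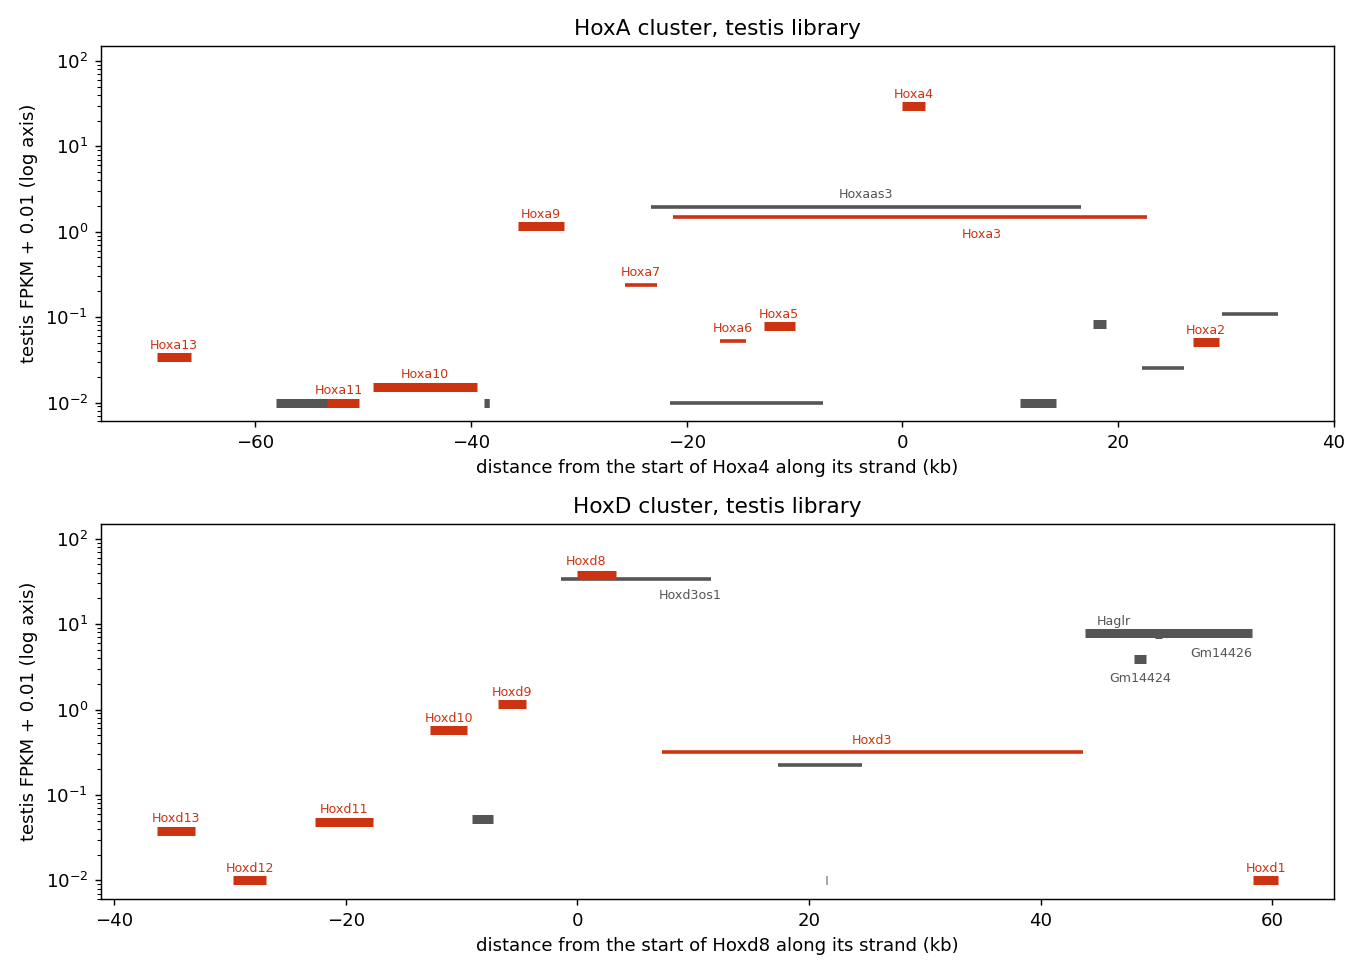
Testis FPKM, plus 0.01 and on a log axis, of features of the HoxA and HoxD clusters, against the distance in kb from the start of Hoxa4 or Hoxd8 along its strand; each bar spans the listed locus, thick bars are estimates marked as OK, thin bars are not, Hox genes are red and other features grey. Hoxa4 (29.5 FPKM) rises over its neighbours and lies within the spans of Hoxa3 and Hoxaas3, and Hoxd8 (37.4 FPKM) lies within the span of Hoxd3os1 (33.97 FPKM, failed).

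The gene missing from the 38 is Hoxd4, whose current identifier is not in the tables. An identifier without a symbol in the HoxD cluster, ENSMUSG00000042464, lies inside the listed span of Hoxd3 and spans 7183 bp on mm9, the same length as Hoxd4 has in RefSeq on GRCm38. It was listed at 0.0064 FPKM in brain and 0 in liver, against 0.213 in testis (0 to 2.67, a failed estimate). It was not counted as a member.

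In liver, the Hox values that could be told from 0 came from the anterior and central groups. Hoxb4 measured 0.00681 FPKM in brain, 0.267 in liver (interval 0.209 to 0.326) and 0.0926 in testis (0.0431 to 0.142), so that its liver interval lies above both others. Hoxb5 measured 0.00778, 0.222 (0.165 to 0.279) and 0.178 FPKM (0.105 to 0.251), with liver and testis overlapping. Hoxa5, also known from lung and gut, measured 0.00787, 0.140 (0.0944 to 0.185) and 0.0688 FPKM (0.0229 to 0.115). The differences of brain minus liver were -1.78 for Hoxb4, -1.58 for Hoxb5 and -1.15 for Hoxa5, all under the 4-fold rule. A 2-fold rule called these 3 genes, 7.89% of the Hox genes, against 9.83% of protein-coding genes lower in brain than in liver. Hoxa2 was listed at 0 in brain and measured 0.0940 FPKM in liver (0.0556 to 0.132) and 0.0407 in testis. The 7 liver genes with a lower bound above 0 included Hoxa2, Hoxa4, Hoxa5, Hoxb4 and Hoxb5, and none came from a group above 5. HoxB held 57.3% of the liver Hox sum, with 0.586 FPKM against 0.381 in HoxA, 0.00695 in HoxC and 0.0492 in HoxD. Posterior genes summed to 0.00324 FPKM in liver. The liver library is the deepest, which lets it show lower levels: 1 fragment was worth a median of 0.00365 FPKM over the Hox genes in liver and 0.00778 in brain and in testis.

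Cells other than hepatocytes are present in the liver library. Endothelial markers (6 of 6 at 0.1 FPKM or more in each library) summed to 13.5 FPKM in brain and 17.0 in liver, against 3.39 in testis. Fibroblast and mural cell markers (8 of 8) summed to 29.6, 44.5 and 58.0, and blood and immune markers (5 of 6 in brain, 6 of 6 elsewhere) to 278, 104 and 8.64. Their part in the liver Hox values was not tested.

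In brain, the only Hox gene with a lower bound above 0 was Hoxd1, at 0.0635 FPKM (interval 0.0186 to 0.108, an implied 8.0 fragments), while it was listed at 0 in liver and testis. Forebrain markers were all present in the brain library (6 of 6 at 1 FPKM or more, sum 65.4 FPKM). Of 9 markers of the hindbrain and brainstem, 2 reached 1 FPKM, the serotonin synthesis enzyme Tph2 (10.2 FPKM) and the serotonin transporter Slc6a4 (3.65), and 3 were under 0.1 FPKM. Of 6 cerebellum markers, 3 reached 1 FPKM, Cbln1 (7.33), Zic1 (5.68) and Car8 (1.54), and 3 were under 0.1 FPKM. The labels do not say which brain regions were taken, and the part of the dissection in the low Hox levels was not tested.

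The small brain values of Hoxa4 and Hoxd8 were 0.0657% and 0.0361% of their testis values. The 6 testis germ cell markers had brain values of 0.0653 to 0.534% of their testis values, with a brain sum of 32.3 FPKM against 39038 in testis. In liver the germ cell markers summed to 0.290 FPKM, with 5 of 6 under 0.1, and Hoxa4 was at 0.307% and Hoxd8 at 0.123% of its testis value. Whether testis RNA in the other libraries contributes to these low Hox values was not tested.

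The testis library holds germ cells and somatic cells, and both kinds could hold Hox RNA. The 6 germ cell markers were all higher in testis than in brain and in liver. Of the somatic lists, Leydig cell markers summed to 441 FPKM in testis, peritubular myoid markers to 184 and Sertoli cell markers to 58.9 (6 of 7 matched). None of the 18 matched genes was under 0.1 FPKM in testis. In brain these lists summed to 1.66, 13.2 and 119 FPKM, and the highest Sertoli list gene held 114 of the last. The Sertoli sum thus does not set testis apart from brain, though 3 of its genes were called higher in testis and 0 lower. Epididymis markers, of which 6 of 8 were under 0.1 FPKM, summed to 1.83, nearly all of it Rnase10 at 1.67. The part of each cell type in the testis Hox values was not tested.

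The noncoding genes of the clusters had a pattern of their own. Of 16 listed, 15 were matched, and 9 of them, the transcripts Hotair, Hottip and Hoxa11os and 6 microRNA genes, were listed at 0 in all 3 libraries. The listed microRNA loci are short, from 68 bp for Mir10b to 110 bp for Mir10a, against reads of 76 cycles. The libraries hold polyadenylated RNA, so these 0 values do not give the level of the mature microRNAs. Haglr, a long noncoding RNA that starts beside Hoxd1, measured 0.637 FPKM in brain and 0 in liver, against 7.82 in testis (interval 6.40 to 9.23), while Hoxd1 itself was listed at 0 in liver and testis. Within its span, Gm14426 measured 0.243 FPKM in brain and 0 in liver, against 7.56 in testis (4.89 to 10.2), which overlaps the Haglr interval, and Gm14424 was listed at 0 in brain and liver and measured 3.86 FPKM in testis (3.33 to 4.397). Hoxb3os, antisense to Hoxb3, was listed at 0 in brain and measured 1.28 FPKM in liver (0.943 to 1.62) and 0.173 in testis, an uncertain value, and it was called higher in liver than in brain. Hotairm1, a noncoding transcript of HoxA known from myeloid cells, was at 0.799 FPKM in brain, 1.32 in liver (0.591 to 2.04) and 0.0977 in testis, of which only the liver value is marked as OK, and was called in no comparison. Hoxb5os was listed at 0 in brain, at 1.23 FPKM in liver (0 to 3.45) and at 2.45 in testis (1.88 to 3.02).

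Genes just outside the clusters were mostly above the Hox genes beside them, with Evx1, Evx2 and Calcoco2 among the exceptions. Ttll6, a tubulin glutamylase gene 28.9 kb beyond the posterior end of HoxB, measured 0.239 FPKM in brain and 0.00233 in liver, against 62.1 in testis (interval 59.99 to 64.2), where no HoxB gene exceeded 0.508. Lnpk, 88.9 kb beyond the posterior end of HoxD, measured 17.4, 2.23 and 62.3 FPKM, and Mtx2, 60.7 kb beyond its anterior end, 11.5, 10.3 and 13. Evx1 and Evx2, homeobox genes joined to the posterior ends of HoxA and HoxD, were low everywhere, at 0.112, 0 and 0.00890 FPKM and at 0.0335, 0 and 0.0163 FPKM. On the anterior side, Skap2 beside HoxA measured 3.92, 7.57 and 9.55 FPKM and Skap1 beside HoxB 0.809, 0.0754 and 1.07. High testis levels were thus found next to HoxB, whose own genes were low, as well as inside HoxA and HoxD.

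**Figure D3:**
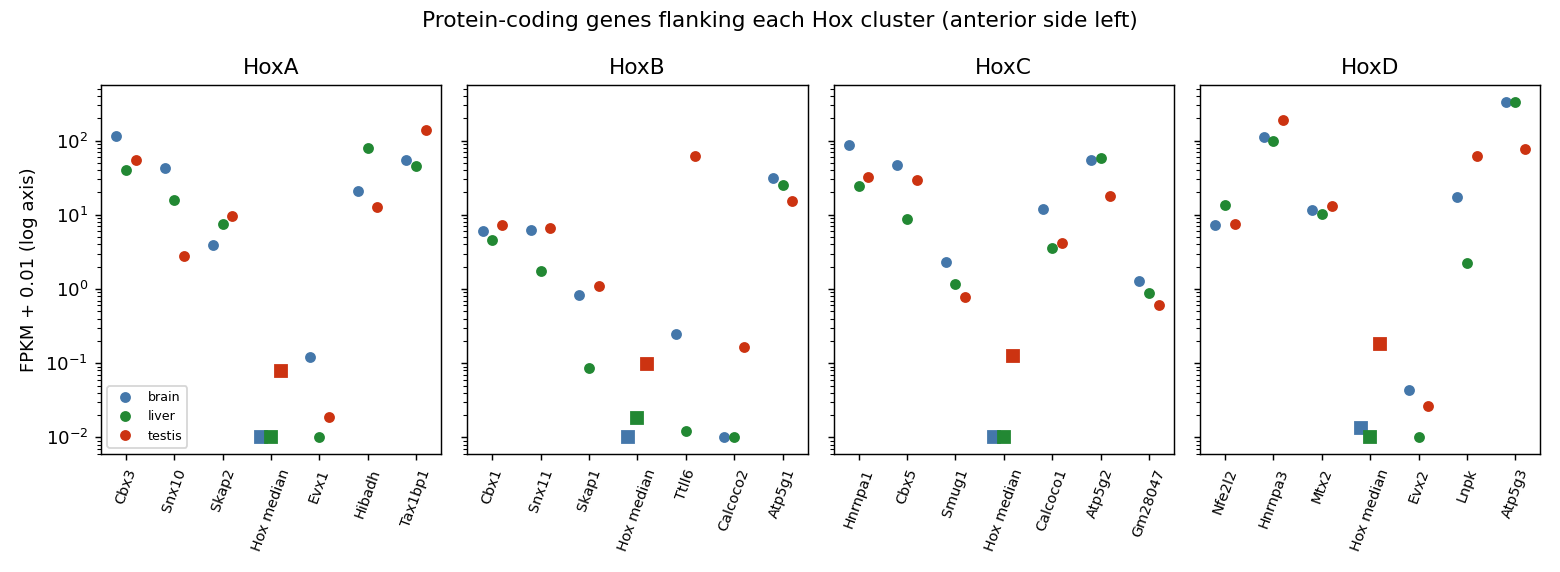
FPKM plus 0.01, on a log axis, of the 3 nearest protein-coding genes on each side of each Hox cluster in brain, liver and testis (circles, 1 library each), with the median over the Hox genes of the cluster as squares. The flanking genes are mostly above the Hox medians, with Evx1, Evx2 and Calcoco2 among the low ones and Ttll6 at 62.1 FPKM in testis against 0.00233 in liver.

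TALE cofactors were found in all 3 libraries, though not every gene in each: 2 of the 9 were under 0.1 FPKM in liver, 1 in testis and 0 in brain. Of 9 cofactor genes, all 9 were at 1 FPKM or more in brain (58.5% of protein-coding genes), 4 in liver (43.9%) and 6 in testis (57.9%). Testis was higher than brain for 2 and lower for 2 (19% and 17% of protein-coding genes), and higher than liver for 3 and lower for 1 (30.1% and 8.87%). Between brain and liver, 5 were higher in brain and 0 in liver (24.6% and 6.38%). The median difference of testis minus brain was -0.68 (0 over all protein-coding genes). That of testis minus liver was 1.47 (0.70 over all), and that of brain minus liver 2.50 (0.70 over all). Pbx4, a Pbx family member known from the testis, measured 3.56 FPKM in brain (interval 2.57 to 4.55), 0.0416 in liver (0 to 0.0882) and 56.3 in testis (53.03 to 59.6), a difference of 3.95 to brain and 8.64 to liver, with no overlap of the intervals. Pknox1, a partner of Pbx proteins, was at 2.19, 1.67 and 9.09 FPKM, higher in testis by 2.01 and 2.37. The direction was the opposite for Meis3, at 12.2, 0.254 and 0.737 FPKM, with a testis minus brain difference of -3.87, and for Pbx2, at 7.39, 1.98 and 1.64 FPKM, with a difference of -2.10. Pbx3 (4.31, 0.685 and 2.84 FPKM) had its highest level in brain, and Meis1, which marks blood stem cells among others, stayed between 0.489 and 1.24 FPKM. Meis2, listed at 41.4 FPKM in brain, has a failed estimate there (0 to 214).

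**Figure D4:**
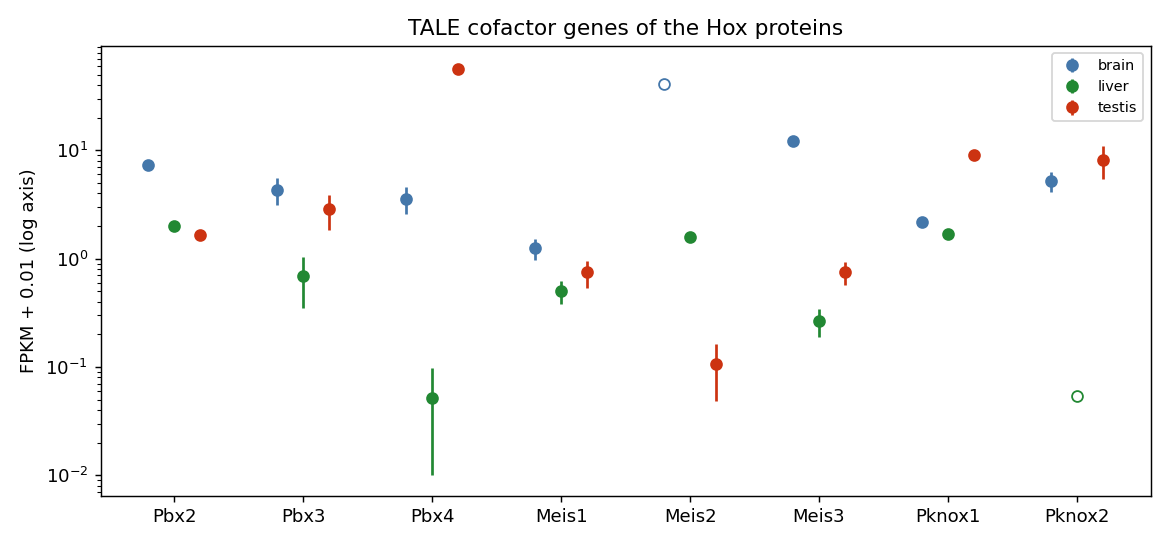
FPKM plus 0.01, on a log axis, of TALE cofactor genes in the brain, liver and testis libraries, 1 library each, with the authors' intervals as vertical lines and uncertain estimates as open circles without an interval. Pbx4 is highest in testis at 56.3 FPKM, and Meis3 is highest in brain at 12.2 FPKM.

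Regulators of the Hox clusters were measured in all 3 tissues. The counts called in each list stand against 19% of protein-coding genes higher and 17% lower in testis than in brain, and 30.1% higher and 8.87% lower than in liver, and several lie near these shares. Of 11 genes of Polycomb repressive complex 2, which marks silent Hox clusters, 1 was higher in testis than in brain and 0 lower, and 4 were higher than in liver and 0 lower. That gene was Ezh2, the methyltransferase of the complex, at 1.48 FPKM in brain and 1.65 in liver, against 35.4 in testis, while the histone-binding subunit Rbbp7 measured 45.3, 21.1 and 32.1. Of 14 genes of Polycomb repressive complex 1, 2 were higher and 3 lower in testis than in brain, and 5 were higher and 0 lower than in liver. They moved in both directions: Bmi1 measured 8.26, 4.06 and 65.3 FPKM, and Cbx8 measured 174, 51.3 and 30.7. Of 10 trithorax and MLL complex genes, which keep Hox genes active, testis was above brain for 2 and below it for 1, and above liver for 4. The 2 were the shared subunits Dpy30, at 42.7, 19.5 and 234 FPKM, and Ash2l, at 8.08, 3.47 and 60.9 FPKM. None of the 3 H3K27 demethylase genes was called in any comparison. Of 12 retinoic acid receptor and enzyme genes, 1 was higher and 1 lower in testis than in brain, and 2 were higher and 1 lower than in liver. Aldh1a2, which makes retinoic acid, measured 2.91 FPKM in brain and 0.0656 in liver, against 34.3 in testis.

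Other homeobox genes marked the 3 tissues where the Hox genes of brain and liver did not. Of 14 forebrain and midbrain homeobox genes, brain was above liver for 12 and above testis for 8 (24.6% and 17% of protein-coding genes). Emx1, a cortical gene, measured 7.48 FPKM in brain and 0 in liver, against 0.0132 in testis. Of 6 hepatic homeobox genes, 4 were higher in liver than in brain and 3 higher in liver than in testis (6.38% and 8.87% of protein-coding genes). Hhex measured 0.849, 102 and 1.501 FPKM. Of 13 matched homeobox genes of reproductive tissue, 6 had higher and 1 lower levels in testis than in brain (19% and 17% of protein-coding genes). The same counts held against liver (30.1% and 8.87%). Rhox8, known from Sertoli cells, measured 0.0537 FPKM in brain and 0 in liver, against 38.6 in testis. The 8 ParaHox and Evx genes, the closest relatives of the Hox genes, were all under 1 FPKM in all 3 libraries, and none was called.

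The region before the Hoxd8 start is shown because Hoxd8 is the highest Hox gene in FPKM. It lies 4.4 kb from a neighbour at a 32.7-fold lower level. The window runs from 250 bases before to 50 after the RefSeq start, at chr2:74704365-74704664 on GRCm38.p6, plus strand. The capitals mark matches to CCAAT and to TGACG, the core of the cAMP response element, searched on both strands together with TATAAA (the TATA box), GGGCGG (the GC box) and TGATNNAT (a Hox and Pbx motif); matches of different motifs do not overlap in this window.
Hoxd8: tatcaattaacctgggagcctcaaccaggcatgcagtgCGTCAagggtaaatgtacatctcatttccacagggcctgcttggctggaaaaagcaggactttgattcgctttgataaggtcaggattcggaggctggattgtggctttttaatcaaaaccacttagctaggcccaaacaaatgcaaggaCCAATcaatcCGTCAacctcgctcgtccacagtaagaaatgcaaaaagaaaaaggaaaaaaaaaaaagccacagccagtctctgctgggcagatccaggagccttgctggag
CCAAT lies 62 bases before the start on the plus strand, and TGACG lies 212 and 52 bases before it on the minus strand. The other 3 motifs have no match in this window. Of 32851 windows of the same length in RefSeq, 37.4% hold CCAAT and 20.8% hold TGACG, while 13.6% hold the TATA box, 35.7% the GC box and 8.85% the Hox and Pbx motif. Among the 24 windows of the 22 Hox genes with an entry, 15 hold CCAAT and 7 hold TGACG, while 4 hold the TATA box, 10 the GC box and 4 the Hox and Pbx motif. The Hoxd8 window has 6 CpG dinucleotides, against a median of 14.5 over the Hox windows and 7 over all windows. A match describes the letters and not a bound site.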

How the data were processed

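Strand-specific libraries of polyadenylated RNA from brain, liver and testis were read for 76 cycles as single ends in 3 lanes each, per the labels' protocols. Cufflinks 2.0.0, TopHat 1.4.0, Bowtie 0.12.5 and the build mm9 are listed in the submitters' processing notes. The annotation is not given in the sources used here. The deposited tables hold FPKM per gene with lower and upper bounds and a status (OK, LOWDATA or FAIL), per the file headers, which name no level for the bounds. A value of exactly 0 may stand for an estimate that failed, and no fold is given against it.

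The 36809 identifiers common to the tables were used, and 31837 had a symbol in GENCODE M21, matched by identifier. Locus starts were raised by 1. Calls used log2(FPKM + 0.1), a 4-fold difference and intervals that did not overlap, over all 20147 protein-coding genes; no test or p-value was possible with 1 library per tissue. Implied fragments are the square of 2 times FPKM over the upper half-width, which takes the interval as counting error only. Implied fragments are not read counts. They summed to 31.8, 86.4 and 40.9 M in brain, liver and testis. The named genes are the members, the TALE cofactors, the noncoding and flanking genes of the clusters and at most the 4 highest members of each other list, up to 3 for markers. The members and the 24 gene lists (200 of 203 entries matched) were chosen with earlier results of these data known. Homeoboxes were located from the conserved run of the recognition helix in translated GENCODE M21 transcripts, not in RefSeq proteins as planned, and promoters come from RefSeq on GRCm38.p6. Some genes and sequences are counted but not reported here. Window sharing refers to GENCODE M21, not to the authors' annotation. Alternatives changed the minimum level, pseudocount, fold, filter, scaling and use of uncertain estimates. Python pandas 2.3.3, numpy 2.4.6 and matplotlib 3.10.9 were used.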

Additional observations from a re-analysis of the deposited data

How the results depend on the processing

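No paired analysis was possible because each tissue has 1 library. With the minimum lowered to 0.1 FPKM, 1 Hox gene counted as expressed in brain, 3 in liver and 17 in testis, and the testis count was 8 at 0.5 FPKM, 2 at 5 FPKM, 2 where the lower bound had to reach 1 FPKM and 3 with scaling by median ratio, which left 1 gene of HoxD and 0 of the posterior class. Hox genes higher in testis than in brain numbered 2 with a pseudocount of 1 (5.26%, against 14.2% of protein-coding genes) and 16 with 0.01 (42.1%, 21.7%). They numbered 12 at 2-fold (31.6%, 27.5%) and 12 with scaling to the FPKM sum of all genes (31.6%, 47.4%). The share thus lies above or below that of all genes with the setting. Against liver, Hox genes higher in testis numbered 2 with a pseudocount of 1 (5.26%, 20.2%), 12 with 0.01 (31.6%, 35.6%) and 11 at 2-fold (28.9%, 42.4%). A filter for genes at 1 FPKM in any library kept 5 Hox genes, of which 4 were called higher in testis in each comparison. All 5 passed the filter only through testis, so this share cannot be set against that of all genes. With a pseudocount of 1, Hoxa4 and Hoxd8 remained called. With a pseudocount of 0.01, 1 Hox gene was lower in testis than in brain, 1 was higher in brain than in liver and 4 were lower. Hox genes lower in brain than in liver numbered 3 at 2-fold (7.89%, 9.83%) and 2 with median ratio scaling (5.26%, 10.3%). They numbered 5 with scaling to the FPKM sum of all genes (13.2%, 36.3%). The last scaling moved the summed Hox FPKM to 4.48 in liver and 213.9 in testis. Over the gene lists other than those of cell type and region markers, a pseudocount of 1 gave 5 genes lower in testis than in brain (16 before), 2 lower than in liver (6), 11 higher in brain than in liver (26) and 1 lower (6). None of the Hox genes called by the main rule reversed its direction under the alternatives run. Scaling moved the median difference of genes at 1 FPKM in any library by 0.06, -0.92 and -0.87 (median ratio), by -0.64, 0.08 and 0.74 (protein-coding sum) and by 2.66, -0.43 and -2.66 (sum of all genes), for testis minus brain, testis minus liver and brain minus liver. The testis minus brain median changed sign with the protein-coding sum, from 0.10 to -0.54. The brain minus liver median changed sign with the sum of all genes, from 0.95 to -1.71. Why these values moved was not tested. Depth limits the low values: 1 fragment was worth a median of 0.00778 FPKM over Hox genes in brain and testis and 0.00365 in liver, and more or less for single genes.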
